A study of Danio rerio with 6 samples.

Results

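Of the genes that at least doubled in Müller glia (MG) of the injured wild-type (Wt) zebrafish retina, 140 stood at or below their uninjured level in MG of the injured mycb mutant retina. They are the subject of this report, and they are 140 of the 23510 genes counted. They were chosen by the measured counts themselves, each divided by the library total and multiplied by 1000000 (CPM). The mean of the mycb mutant libraries had to be at or below that of uninjured Wt, and the mean of injured Wt had to be at least 10 CPM and at least 2-fold above uninjured Wt, with uninjured Wt at 1 CPM or more. Each injured Wt library had to exceed each of the 4 other libraries. Genes listed in the study's tables of cell cycle, DNA replication, ribosome and translation families were left out, as were sox2, gfap, glulb, apoeb, id1 and crlf1a. All 3 comparisons among the groups therefore chose the members, and every value given for them below is a description and not a test.

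The libraries fall into 3 groups of 2. The first is mycb-/- fish 2 days after retinal injury (mycb mutant 2 dpi), the next is Wt fish 2 days after the same injury (Wt 2 dpi), and the last is uninjured Wt fish. All 6 libraries carry the gfap:GFP transgene, in which a glial promoter drives GFP in MG and in the progenitors that derive from them. GFP+ cells were sorted by FACS from pooled, papain-dissociated retinas, and poly(A) RNA was sequenced. The study used adult male and female fish, and the sample titles do not give the sex for each library. Injured retinas were poked with a needle. The mutant is 1 germline line, made with guide RNAs against exon 2 and bred to homozygosity. There is no uninjured mycb mutant group, so an effect of the mutation before injury and a failure to induce a gene after it cannot be told apart. The treatment label of both Wt 2 dpi libraries reads none, against their titles, which were followed. The libraries held 47088844 to 64353562 counts. Replicates 1 and 2 are not said to come from separate fish pools, so any spread between them may be technical.

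MG are the radial glia of the retina. They span its whole thickness, recycle glutamate, buffer potassium and support photoreceptors. In zebrafish, injury makes them leave rest, take on features of retinal progenitors and divide to replace lost neurons. Myc proteins are basic helix-loop-helix transcription factors that bind DNA with a partner and promote growth, ribosome production and cell division. Many genes of those processes were barred by the rule, though not all, and only 4 of those barred as listed families met its other conditions. The kinase genes WEE1 and rps6kb1a below are members that act in cell division and growth.

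The rule cut into the edge of a much larger response. Of 9516 genes with enough signal, 1990 were at least 2-fold higher in Wt 2 dpi than in uninjured Wt, and 146 of these, or 7.34%, had a mutant mean at or below the uninjured one. After 6 genes were left out, 140 remained, of which 137 have a symbol. Of the 6, ID1 and SOX2 were left out by name and the other 4, mad1l1, cdkn1a and nop14 among them, as members of the listed families. Gene symbols come from a table that often gives the human form and does not separate zebrafish duplicates, so the Ensembl identifier is given where it matters.

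**Figure D1:**
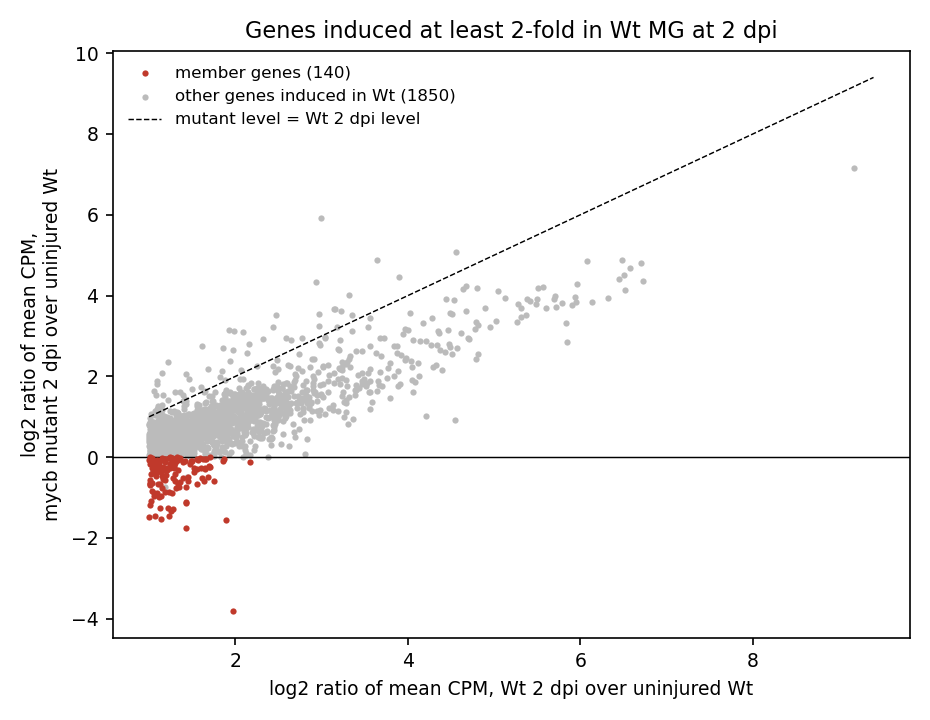
The 1990 genes that were at least 2-fold higher in Wt 2 dpi than in uninjured Wt MG, each as a point. The horizontal axis is the log2 ratio of mean CPM of Wt 2 dpi over uninjured Wt, the vertical axis that of mycb mutant 2 dpi over uninjured Wt, and the dashed line marks equal levels in mutant and Wt 2 dpi. The 140 members, in red, lie at or below 0 and at the weakly induced end, none above 2.16 on the horizontal axis.

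In this set induction was modest. The members' log2 ratio of Wt 2 dpi over uninjured Wt had a median of 1.21 and ran from 1.002 to 2.16. The other 1850 genes had a median of 1.65 and reached 9.18. The uninjured mean enters both this ratio and the rule's limit on the mutant mean, so the difference is not independent of the rule. In the mutant, the members stood at a median of 82.8% of their uninjured level and 32.6% of their Wt 2 dpi level. Of the 140, 47 were within 90 to 100% of the uninjured mean, 39 within 75 to 90%, 39 within 50 to 75%, 14 within 25 to 50% and 1 below 25%. For most members, then, the mutant mean was close to the uninjured one, and a smaller number lay well under it.

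The libraries differed in the level of MG marker transcripts, which bears on every value that follows. The summed level of 7 MG markers that the rule does not name (cahz, rlbp1a, and the genes listed as GLUL, SLC1A2 and KCNJ10, the last 2 with 2 identifiers each) was 2788 and 3429 CPM in mycb mutant libraries, 8647 and 8272 CPM in Wt 2 dpi and 12854 and 8794 CPM in uninjured Wt. Both mutant libraries were thus below all 4 Wt libraries. For the whole list of 11 markers the sums were 5300.0 and 6527 CPM in mycb mutant, 20871 and 19689 CPM in Wt 2 dpi and 16058 and 11184 CPM in uninjured Wt, and no marker was at 0 in all libraries. Both Wt 2 dpi libraries were thus below both uninjured ones for the 7 markers and above both for the 11. Whether injury or the mutation changes the markers themselves was not tested, so the sums are not a measure of MG share. Of the 11, edgeR called 10 lower in the mutant than in Wt 2 dpi and 6 lower than in uninjured Wt. One SLC1A2 copy (ENSDARG00000052138) went the other way and was called higher in the mutant in both comparisons.

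Photoreceptor transcripts moved as well. The 19 cone markers summed to 104280 and 90908 CPM in mycb mutant, 42520 and 46382 CPM in Wt 2 dpi and 69844 and 84014 CPM in uninjured Wt. The 20 rod markers summed to 14433 and 13610 CPM in mycb mutant, 3621 and 3264 CPM in Wt 2 dpi and 14195 and 21759 CPM in uninjured Wt. Markers of other cells moved too. The 8 markers of the retinal pigment epithelium summed to 760.2 and 717 CPM in mycb mutant, 321 and 539 CPM in Wt 2 dpi and 69.1 and 29.3 CPM in uninjured Wt. The 8 microglia markers summed to 141 and 132 CPM in mycb mutant, 54.6 and 79.4 CPM in Wt 2 dpi and 17.2 and 20.9 CPM in uninjured Wt. Both lists were thus highest in the mutant, while bipolar and amacrine cell markers were lowest there. The 8 bipolar cell markers summed to 211 and 277 CPM in mycb mutant, 674 and 511 CPM in Wt 2 dpi and 1097 and 848 CPM in uninjured Wt. The 6 amacrine cell markers summed to 760.4 and 773 CPM in mycb mutant, 1165 and 1049 CPM in Wt 2 dpi and 2962 and 2479.7 CPM in uninjured Wt. The 7 ganglion cell markers were also lowest in mycb mutant, at 394 and 347 CPM. They had 536 and 640 CPM in Wt 2 dpi and 1167 and 1220 CPM in uninjured Wt. Like the members, the 3 lens markers were highest in Wt 2 dpi, at 111 and 79.7 CPM. They had 14.1 and 24.7 CPM in mycb mutant and 5.50 and 2.51 CPM in uninjured Wt. The 3 proliferation markers had 337 and 240 CPM in mycb mutant, 886 and 839 CPM in Wt 2 dpi and 45.9 and 51.4 CPM in uninjured Wt. In bulk libraries, fewer cells of a type and less RNA per cell cannot be told apart.

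Scaled in another way, the same counts gave another picture. When the counts were scaled to the 7 MG markers in place of the library total, 139 of the 140 members were higher in mycb mutant 2 dpi than in uninjured Wt, with a median log2 ratio of 1.52, and the exception was si:dkey-83k24.5. Between mycb mutant 2 dpi and Wt 2 dpi the median log2 ratio was -0.14 on that scale, with 54 members above 0 and 86 at or below. Applied on that scale, the rule found 2 genes, and neither was among the 140. This scaling was chosen after seeing the data, and it also put most other genes higher in the mutant, since 12599 of 20329 were then called higher than in uninjured Wt and 77 lower. The statement that a member was not induced in the mutant therefore holds relative to all RNA in the library and not relative to the RNA of MG markers. The part of MG share and of RNA from other cell types in the members' levels was not tested.

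**Figure D2:**
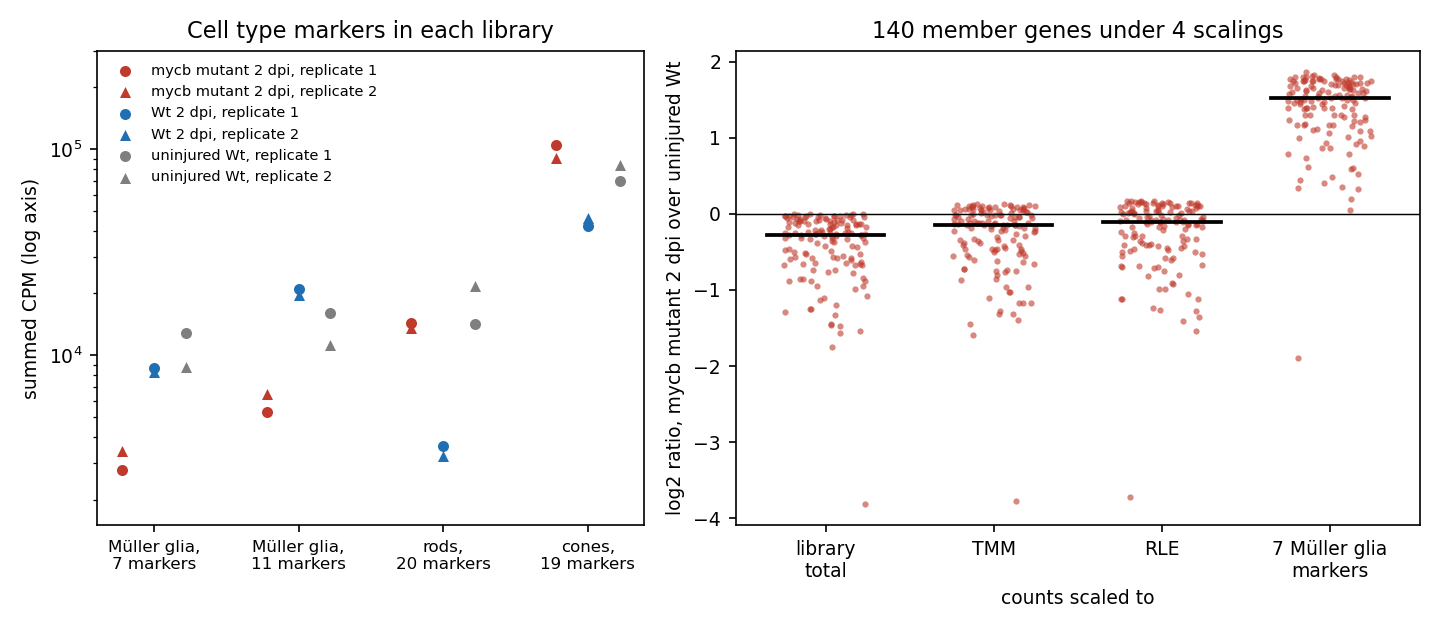
Left, summed CPM (log axis) of Müller glia, rod and cone marker genes in each library, with a circle for replicate 1 and a triangle for replicate 2. Right, the log2 ratio of mycb mutant 2 dpi over uninjured Wt for the 140 members when counts are scaled to the library total, by TMM, by RLE or to 7 Müller glia markers, with the median as a line. The medians are -0.27, -0.15, -0.10 and 1.52.

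For comparison with the rest of the genome, all 6 libraries were also fitted together with edgeR's quasi-likelihood test after TMM scaling, and a gene was called at an adjusted p of at most 0.05 and an absolute log2 fold change above 0.5. All 140 members passed the filter on low counts. Of them, 134 were called higher in Wt 2 dpi than in uninjured Wt, where the share of all genes called higher was 19.2%. In mycb mutant against Wt 2 dpi, 138 were called lower and 0 higher, where the shares of all genes were 12.2% and 8.21%. In CPM, the rule put both mutant libraries below both Wt 2 dpi libraries for 140 members and above them for 0, against 41.7% and 20.5% of all tested genes. Since the rule used these contrasts, nothing is read from the counts. The members not called were GEMIN4 in both, ENSDARG00000097825 in the mutant comparison, and MMP2, HHIP, pim2, si:dkey-83k24.5 and ENSDARG00000103841 in the injury comparison (GEMIN4, ENSDARG00000097825 and pim2 are named after their values were seen).

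Between mycb mutant 2 dpi and uninjured Wt, 15 members were called lower and 0 higher, against 13.4% and 12.2% of all genes. Among the 15 were si:dkey-83k24.5, SERPINE3, DAW1, GSTM3, HHIP, DDIT4, HSPB1, CRTAC1, tmc6b, TWSG1, LRRC17, PLD2, PYGL and MYLIP (the last outside the naming rule). Without uninjured Wt replicate 1 the number was 6, and with mycb mutant replicate 1 or 2 left out it was 10 or 11. In CPM, both mutant libraries lay below both uninjured ones for 59 members, overlapped them for 81 and lay above them for 0, where the shares of all tested genes below and above were 35% and 28.1%. Such separations, here and below, are in CPM and depend on the scaling. The TMM factors of replicates 1 and 2 were 1.0026 and 0.88942 in mycb mutant and 1.0752 and 0.97584 in uninjured Wt. Narrow separations can thus be lost after TMM scaling, and how many of the 59 remain was not counted. The median edgeR log2 fold change of the members was -0.15, against 0.02 over all genes tested, and after TMM scaling 36 of the 140 ratios were above 0, although the rule put every member at or below the uninjured level in CPM.

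Replicate 1 of uninjured Wt carried more of these transcripts than replicate 2. It was the higher of the pair for 122 of 140 members, or 87.1%, with a median log2 ratio of 0.46, while it was the higher for 61.2% of all tested genes and 53% of the other induced genes. The rule compared the mutant mean with the uninjured mean, so the 87.1% is not independent of how the members were chosen. The 7 MG markers differed in the same direction, with 12854 and 8794 CPM in uninjured replicates 1 and 2. The part of the choice and of MG share in this difference was not tested. In the mutant and in Wt 2 dpi the replicates were more even, with replicate 1 higher for 84 and 85 members. The uninjured mean, which sets both the induction and the mutant ratio, thus rested on libraries that differed in the same direction for most of these genes. With uninjured replicate 1 or replicate 2 left out, the rule chose 171 or 130 genes, of which 80 or 75 were among the 140.

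**Figure D3:**
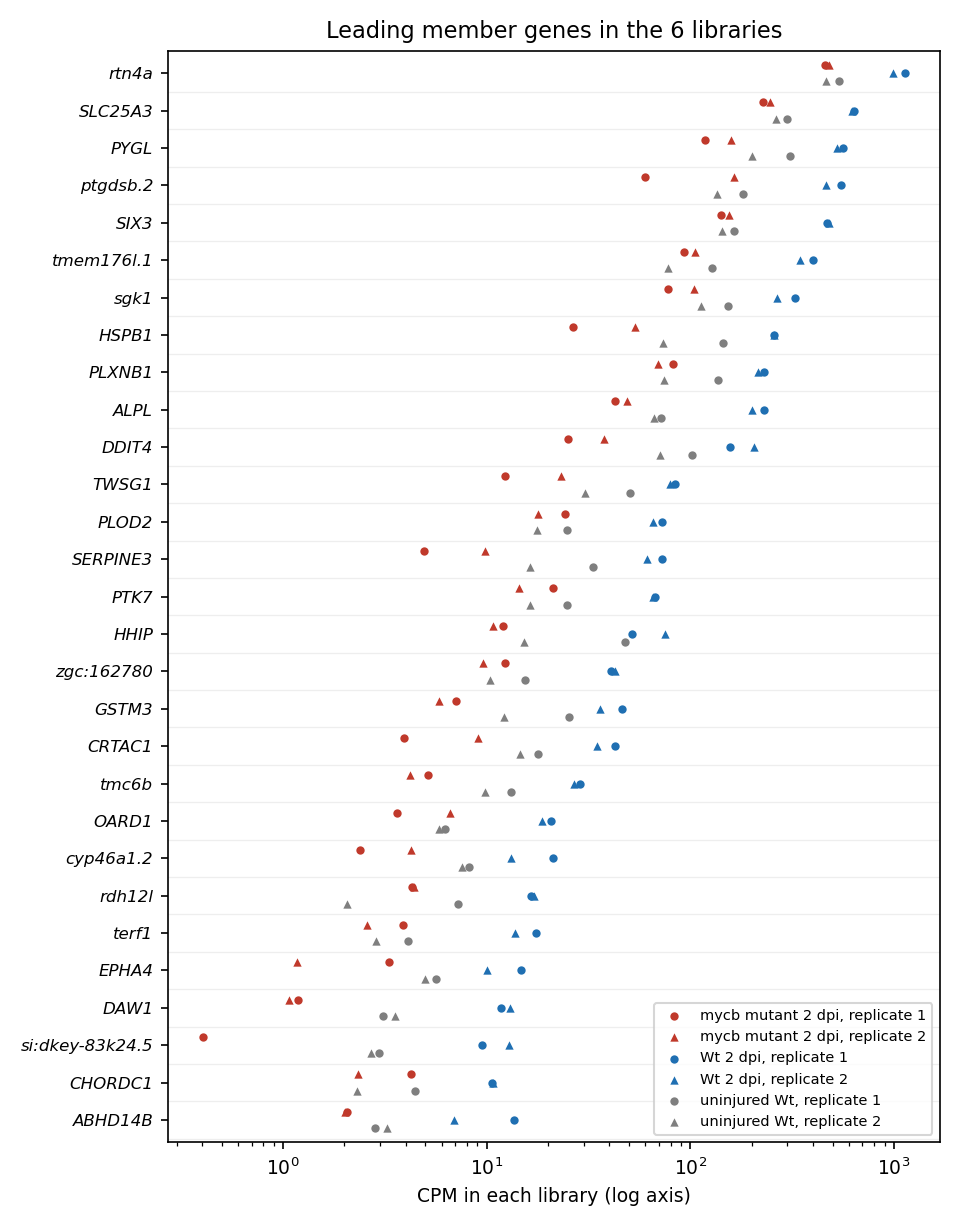
CPM (log axis) in each of the 6 libraries for 29 members with a symbol, from those with the highest level in Wt 2 dpi, the largest induction or the lowest mutant level relative to uninjured Wt. In each row mycb mutant 2 dpi is drawn above Wt 2 dpi and uninjured Wt, with a circle for replicate 1 and a triangle for replicate 2, and a value of 0 (si:dkey-83k24.5 in mutant replicate 2) is not drawn. Wt 2 dpi is to the right of the other libraries in every row, as the rule requires.

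Transcription factors of the eye field and of retinal progenitors were among the members, at levels from high to modest. SIX3 (ENSDARG00000054879), a homeodomain factor of the forebrain and eye field, had 142 and 154 CPM in mycb mutant, 470.0 and 479 CPM in Wt 2 dpi and 165 and 143 CPM in uninjured Wt. Mutant and uninjured libraries overlapped, and Wt 2 dpi was about 3-fold above either. SOX9 (ENSDARG00000003293), an HMG-box factor of glia and progenitors, had 12.3 and 10.8 CPM in mycb mutant, 53.9 and 43.5 CPM in Wt 2 dpi and 25.5 and 13.7 CPM in uninjured Wt. Both mutant libraries lay below both uninjured ones, with a log2 ratio of -0.76. ERF (ENSDARG00000063417), an ETS repressor, had 10.1 and 11.6 CPM in mycb mutant, 20.7 and 32 CPM in Wt 2 dpi and 13.5 and 8.46 CPM in uninjured Wt, with mutant and uninjured libraries overlapping.

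Each of SIX3, SOX9 and ERF has another identifier under the same symbol, and none of these other copies followed the pattern. The other SOX9 (ENSDARG00000043923) had 9.45 and 9.48 CPM in mycb mutant, 4.85 and 4.39 CPM in Wt 2 dpi and 3.53 and 3.88 CPM in uninjured Wt, and was called higher in the mutant in both comparisons. The other SIX3 (ENSDARG00000058008) had 56.3 and 53.5 CPM in mycb mutant, 80.7 and 68.2 CPM in Wt 2 dpi and 102 and 98.6 CPM in uninjured Wt. How reads shared by such copies were assigned is not known here, so the split between copies is uncertain. For the wider lists of related genes, the counts here and below leave out the members, which the rule chose for these same changes. Leaving them out also shapes what remains. No member was called higher in mutant than in uninjured Wt, so their removal can raise the share called higher among the rest. The lists still hold genes that met the same limits but were left out by name or family. These are SOX2 and ID1 on the list of MG and progenitor factors and cdkn1a on the list of p53 targets. The shares of all tested genes were 19.2% called higher and 17.4% lower with injury. They were 8.21% higher and 12.2% lower in mutant than in Wt 2 dpi, and 12.2% higher and 13.4% lower in mutant than in uninjured Wt. All these lists were drawn up with earlier results of these data known, so a difference from those shares is a description and not a test. Of 25 tested non-members on a list of MG and progenitor factors, 9 were called higher and 3 lower in Wt 2 dpi than in uninjured Wt, 3 higher and 13 lower in mutant than in Wt 2 dpi, and 4 higher and 7 lower in mutant than in uninjured Wt. The proneural factor ascl1a, a non-member known for MG reprogramming, was still far above its resting level in the mutant, at 56.4 and 58.0 CPM, with 252 and 239 CPM in Wt 2 dpi and 4.33 and 3.63 CPM in uninjured Wt.

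Signaling genes formed the largest class, with 25 members and a median log2 ratio of mutant over uninjured Wt of -0.47. HHIP (ENSDARG00000060397), a membrane protein that binds hedgehog ligands and dampens the pathway, had 12 and 10.7 CPM in mycb mutant, 51.6 and 74.9 CPM in Wt 2 dpi and 47.8 and 15.3 CPM in uninjured Wt. Its uninjured replicates differed about 3-fold, and the higher of them came close to the lower Wt 2 dpi library. Of 16 tested non-members on the hedgehog list, 2 were called higher and 2 lower in Wt 2 dpi than in uninjured Wt. In the mutant, 2 were called higher and 5 lower than in Wt 2 dpi, and 1 higher and 6 lower than in uninjured Wt. The receptor PTCH1, itself a target of the pathway, had 14.3 and 10.6 CPM in mycb mutant, 19.7 and 24.9 CPM in Wt 2 dpi and 45.2 and 29.0 CPM in uninjured Wt. The hedgehog co-receptor BOC had 22.2 and 17.5 CPM in mycb mutant, 51.9 and 59.3 CPM in Wt 2 dpi and 109.9 and 67.5 CPM in uninjured Wt. PTCH1 and BOC are the 2 non-members called lower with injury, and both were called lower in the mutant than in uninjured Wt. HHIP was highest in Wt 2 dpi, and the 2 non-members called higher with injury are not shown.

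Several members act on growth signals. DDIT4, which restrains the mTOR complex under stress, had 25.2 and 37.7 CPM in mycb mutant, 157 and 205 CPM in Wt 2 dpi and 102 and 70.9 CPM in uninjured Wt, and both mutant libraries were below both uninjured ones (log2 ratio -1.46). The serum- and glucocorticoid-induced kinase sgk1 had 77.4 and 105 CPM in mycb mutant, 327 and 266 CPM in Wt 2 dpi and 154 and 112 CPM in uninjured Wt. The kinase genes rps6kb1a (S6 kinase) and AKT2 were expressed at a lower level. For rps6kb1a the libraries held 18.1 and 18.3 CPM in mycb mutant, 41.4 and 49.0 CPM in Wt 2 dpi and 24.3 and 19.7 CPM in uninjured Wt. In CPM, both mutant libraries of rps6kb1a lay below both uninjured ones, but its log2 fold change after TMM scaling was -0.15 and not called. AKT2 overlapped and had a log2 ratio of -0.03 of mutant over uninjured Wt in CPM.

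Ligand modulators and receptors included TWSG1, a secreted BMP-binding protein, with 12.3 and 23.2 CPM in mycb mutant, 84.0 and 79.7 CPM in Wt 2 dpi and 50.5 and 30.5 CPM in uninjured Wt. PLXNB1, a semaphorin receptor, had 82.3 and 69.3 CPM in mycb mutant, 231 and 216 CPM in Wt 2 dpi and 136 and 74.0 CPM in uninjured Wt. PTK7, a pseudokinase receptor of planar cell polarity and Wnt signaling, was among the more strongly induced, at 21.1 and 14.4 CPM in mycb mutant, 67.4 and 65.7 CPM in Wt 2 dpi and 24.8 and 16.4 CPM in uninjured Wt. Both mutant libraries lay below both uninjured ones in 11 of the 25 signaling members (42.1% of all members and 35% of all tested genes). TWSG1 was among the 11, while the mutant and uninjured libraries of PLXNB1 and PTK7 overlapped. Among the weaker transcripts, EPHA4, an ephrin receptor, had 3.31 and 1.17 CPM in mycb mutant, 14.7 and 10.1 CPM in Wt 2 dpi and 5.67 and 4.97 CPM in uninjured Wt. The Wnt genes PORCN, whose enzyme acylates Wnt ligands, and ZNRF3, a ubiquitin ligase that removes Frizzled receptors, had log2 ratios of -0.30 and -0.42 of mutant over uninjured Wt. The adhesion receptor adgrg1 had -0.85, the Ras-association gene RASSF7 -0.74, the collagen receptor ddr2l -0.26, MAP3K21 -0.18 and PHLDA2 -0.08.

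On a wider list of signaling ligands, receptors and kinases, 26 tested genes were not members. Of these, 16 rose with injury in Wt fish and 1 fell by the edgeR call, and 19 were called lower and 0 higher in the mutant against Wt 2 dpi. In the mutant against uninjured Wt, 4 were called higher and 5 lower, where the shares over all tested genes were 12.2% and 13.4%. As the members were taken out of the list, nothing is read from this.

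The matrix, adhesion and cytoskeleton class, with 16 members, had the lowest median log2 ratio of mutant over uninjured Wt among the classes, -0.56, and in 9 of the 16 both mutant libraries lay below both uninjured ones, against 42.1% of all members and 35% of all tested genes. The rule capped this ratio for every member, while the 35% is over genes without that cap. The classes were assigned by hand after the members were known, so differences between classes are descriptions and not tests. SERPINE3, of the serine protease inhibitor family, had 4.95 and 9.80 CPM in mycb mutant, 72.7 and 61.3 CPM in Wt 2 dpi and 33.4 and 16.4 CPM in uninjured Wt. CRTAC1, a secreted glycoprotein, had 3.91 and 9.06 CPM in mycb mutant, 42.4 and 35 CPM in Wt 2 dpi and 17.8 and 14.7 CPM in uninjured Wt. The leucine-rich repeat gene LRRC17 had 5.65 and 5.95 CPM in mycb mutant, 38.5 and 28.9 CPM in Wt 2 dpi and 16.5 and 8.48 CPM in uninjured Wt. In all 3 the mutant was at 29.6 to 46.4% of the uninjured mean and at 11 to 17.2% of the Wt 2 dpi mean.

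The other matrix and adhesion members ranged from close to the uninjured level to well below it. PLOD2, which hydroxylates collagen lysines for cross-linking, had 24.3 and 17.9 CPM in mycb mutant, 72.4 and 65.9 CPM in Wt 2 dpi and 24.9 and 17.6 CPM in uninjured Wt, so that mutant and uninjured libraries nearly coincided. The focal adhesion genes PARVA (parvin) and TLN1 (talin) also had close means, with log2 ratios of mutant over uninjured Wt of -0.03 and -0.09 and of Wt 2 dpi over uninjured Wt of 1.59 and 1.31. For TLN1 the uninjured libraries were far apart, at 40.2 and 24.9 CPM, and the mutant libraries lay between them, at 31.7 and 29.5 CPM. CD82, a tetraspanin, had 28.3 and 27.5 CPM in mycb mutant, 109.5 and 97.1 CPM in Wt 2 dpi and 37.5 and 34.3 CPM in uninjured Wt, so that both mutant libraries were below both uninjured ones. NID1, a linker of basement membranes, was at -0.66, and the gelatinase MMP2 at -0.63 with mutant libraries of 15.1 and 5.85 CPM that differed more than 2-fold. TSKU, a secreted proteoglycan, was at -0.23 and PERP, a junction protein and p53 target, at -0.48. DAW1, which helps to assemble dynein arms of motile cilia, was a faint transcript with a clear separation, at 1.19 and 1.06 CPM in mycb mutant, 11.7 and 12.9 CPM in Wt 2 dpi and 3.1 and 3.56 CPM in uninjured Wt. Of 34 tested non-members on a fuller list of adhesion and matrix genes, 19 were called higher and 3 lower in Wt 2 dpi than in uninjured Wt, 16 lower and 0 higher in the mutant than in Wt 2 dpi, and 8 higher and 1 lower in the mutant than in uninjured Wt.

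**Figure D4:**
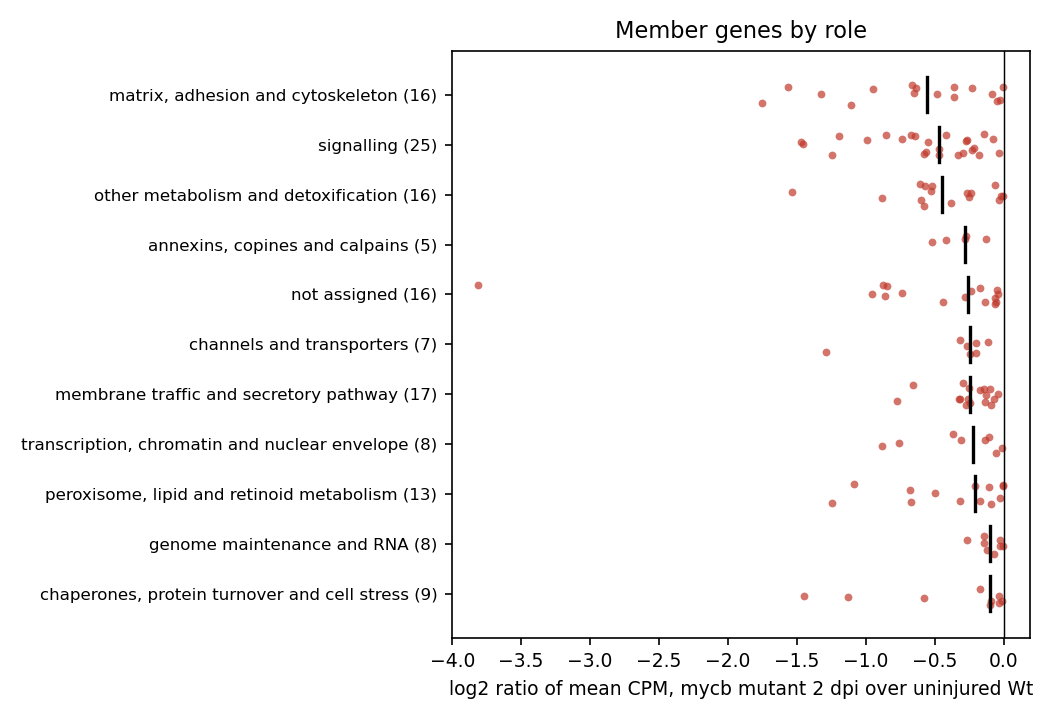
The log2 ratio of mean CPM of mycb mutant 2 dpi over uninjured Wt for each of the 140 members (points), by role class with its number of members, with the class median as a line. Class medians run from -0.56 for matrix, adhesion and cytoskeleton to -0.10 for chaperones, protein turnover and cell stress. The classes were assigned by hand after the members were known.

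Membrane traffic and the secretory pathway gave 17 members, with a median log2 ratio of mutant over uninjured Wt of -0.25, near the -0.27 of all 140 members. The most abundant member of all was rtn4a (ENSDARG00000044601), a reticulon that shapes tubules of the endoplasmic reticulum, with 457 and 481 CPM in mycb mutant, 1129.5 and 984.5 CPM in Wt 2 dpi and 536 and 465 CPM in uninjured Wt. Its mutant and uninjured libraries overlapped. Of the others, VPS33A, needed for fusion with lysosomes, had 14.9 and 15.9 CPM in mycb mutant, 39.5 and 39.8 CPM in Wt 2 dpi and 18.0 and 18.5 CPM in uninjured Wt. The ribosome-binding protein gene rrbp1b of the endoplasmic reticulum had 7.14 and 12.9 CPM in mycb mutant, 34.3 and 34.8 CPM in Wt 2 dpi and 22.2 and 9.50 CPM in uninjured Wt. Its mutant mean was lower than the uninjured one by 0.66 on the log2 scale, but the libraries overlapped. GAPVD1, stxbp3, MCFD2, litaf, TMED3, siae and DERL3, which act in endocytosis, vesicle fusion, export from the endoplasmic reticulum, lysosomes and protein quality control, ranged from -0.32 to -0.04 in the same ratio. DENND3, an activator of Rab GTPases, was lowest at -0.77.

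Of 17 tested non-members on a secretory, lysosome and membrane traffic list, 16 were called higher and 0 lower in Wt 2 dpi than in uninjured Wt (19.2% and 17.4% of all tested genes). In the mutant against Wt 2 dpi 14 were called lower and 0 higher, and against uninjured Wt 1 was called higher and 0 lower. The list was drawn up with earlier results of these data known.

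Lipid, peroxisome and retinoid genes numbered 13. ptgdsb.2, of the lipocalin-type prostaglandin D synthase family, was abundant and varied in the mutant, with 59.8 and 164 CPM in mycb mutant, 551 and 463 CPM in Wt 2 dpi and 181 and 136 CPM in uninjured Wt. The peroxisomal genes ABCD3 (a fatty acyl-CoA transporter of the peroxisome membrane), ACAA1 (thiolase) and ECI2 (enoyl-CoA isomerase) had log2 ratios of mutant over uninjured Wt of -0.32, -0.68 and -0.11. PLD2, a phospholipase that makes phosphatidic acid, had 18.3 and 13.8 CPM in mycb mutant, 69.4 and 68.8 CPM in Wt 2 dpi and 44.1 and 23.9 CPM in uninjured Wt. A gene of the brain cholesterol hydroxylase family, cyp46a1.2, had 2.38 and 4.24 CPM in mycb mutant, 21.2 and 13.2 CPM in Wt 2 dpi and 8.15 and 7.58 CPM in uninjured Wt. For both of these, mutant libraries were below uninjured ones, as for 6 of the 13 members of this class (42.1% of all members and 35% of all tested genes). rdh12l, a retinol dehydrogenase gene, had 4.31 and 4.38 CPM in mycb mutant, 16.6 and 17.1 CPM in Wt 2 dpi and 7.22 and 2.07 CPM in uninjured Wt, so that its large induction (log2 ratio 1.86) rested on uninjured libraries more than 3-fold apart. The acyl-CoA thioesterase gene them4 had the same mean in mutant and uninjured Wt within 1%, 13.5 CPM in each.

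Carbohydrate, redox and other metabolism gave 16 members. PYGL, the glycogen phosphorylase that frees glucose units from stored glycogen, had 119 and 158 CPM in mycb mutant, 559.5 and 528 CPM in Wt 2 dpi and 308 and 202 CPM in uninjured Wt. The alkaline phosphatase gene ALPL had 42.5 and 48.8 CPM in mycb mutant, 229.8 and 201 CPM in Wt 2 dpi and 71.9 and 66.3 CPM in uninjured Wt. GSTM3, a glutathione transferase, had 7.05 and 5.85 CPM in mycb mutant, 46.3 and 35.9 CPM in Wt 2 dpi and 25.3 and 12.1 CPM in uninjured Wt. All 3 had both mutant libraries below both uninjured ones, as had 8 of the 16 members of this class (42.1% of all members and 35% of all tested genes). POR, which passes electrons to cytochromes P450, did not: it had 56.0 and 65.9 CPM in mycb mutant, 136 and 116 CPM in Wt 2 dpi and 71.3 and 52.0 CPM in uninjured Wt. OARD1, which removes ADP-ribose from proteins, and ABHD14B, a hydrolase, were faint and strongly induced for this set, with log2 ratios of Wt 2 dpi over uninjured Wt of 1.71 and 1.76. In Wt 2 dpi, ABHD14B had 13.6 and 6.92 CPM, so its replicates differed about 2-fold.

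On the list of lipid, peroxisome and carbon metabolism, 10 of 14 tested non-members were called higher and 1 lower in Wt 2 dpi than in uninjured Wt, 9 lower and 0 higher in the mutant than in Wt 2 dpi, and 2 lower and 0 higher in the mutant than in uninjured Wt.

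Chaperone and stress genes were few but included a strong case. HSPB1, a small heat shock protein that binds unfolding proteins and actin filaments, had 26.6 and 53.7 CPM in mycb mutant, 256 and 258 CPM in Wt 2 dpi and 145 and 73.7 CPM in uninjured Wt. The related HSPB8 had 11 and 13.1 CPM in mycb mutant, 51.4 and 47 CPM in Wt 2 dpi and 26.1 and 9.89 CPM in uninjured Wt. Uninjured replicate 1 was the higher for both. So it was for 61.2% of all tested genes, and for the non-members hsp70l and BAG3. The inducible chaperone hsp70l had 231 and 335 CPM in mycb mutant, 1479 and 896 CPM in Wt 2 dpi and 3625 and 2058 CPM in uninjured Wt. The co-chaperone BAG3 had 31.6 and 39.7 CPM in mycb mutant, 82.4 and 44.0 CPM in Wt 2 dpi and 328 and 90.1 CPM in uninjured Wt. The part of this difference between uninjured libraries in the levels of HSPB1 and HSPB8 was not tested. Of 12 tested non-members on the chaperone and stress list, 4 were called higher and 3 lower in Wt 2 dpi than in uninjured Wt. In the mutant, 1 was called higher and 6 lower than in Wt 2 dpi, and 1 higher and 4 lower than in uninjured Wt. UNC45A, a myosin chaperone, AIFM2, a coenzyme Q reductase that protects membrane lipids, and CHORDC1, a co-chaperone of HSP90, were within 3% of the uninjured mean in the mutant.

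Annexins, copines and calpains, which bind calcium and act at membranes, gave 5 members, and in 4 both mutant libraries lay below both uninjured ones (42.1% of all members and 35% of all tested genes did). CPNE1 had 57.2 and 48.0 CPM in mycb mutant, 151 and 135 CPM in Wt 2 dpi and 69.0 and 58.6 CPM in uninjured Wt. ANXA11 (ENSDARG00000077383) had 26.4 and 26.5 CPM in mycb mutant, 89.0 and 85.3 CPM in Wt 2 dpi and 39.9 and 30.8 CPM in uninjured Wt. A non-member under the same symbol, ENSDARG00000002632, was close to this pattern, with 42.5 and 40.9 CPM in mycb mutant, 90.3 and 101 CPM in Wt 2 dpi and 53.9 and 43.9 CPM in uninjured Wt. CPNE3 and CAPN1 (ENSDARG00000045199) had log2 ratios of mutant over uninjured Wt of -0.27 and -0.52. Of 16 tested non-members of these families, 12 were called higher in Wt 2 dpi than in uninjured Wt, 7 lower in the mutant than in Wt 2 dpi, and 6 higher and 0 lower in the mutant than in uninjured Wt. ANXA2 (ENSDARG00000003216), a non-member, showed the other course, with 34.1 and 30.3 CPM in mycb mutant, 32.4 and 28.6 CPM in Wt 2 dpi and 0 and 0.808 CPM in uninjured Wt.

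Channels and transporters gave 7 members. SLC25A3, the carrier that brings phosphate into mitochondria, had 229 and 245 CPM in mycb mutant, 638 and 623 CPM in Wt 2 dpi and 298 and 265 CPM in uninjured Wt. The transmembrane channel-like gene tmc6b had 5.14 and 4.22 CPM in mycb mutant, 28.7 and 27.0 CPM in Wt 2 dpi and 13.1 and 9.80 CPM in uninjured Wt. For both, the mutant libraries were below the uninjured ones in CPM, by 0.25 on the log2 scale for SLC25A3 and by 1.29 for tmc6b. After TMM scaling the log2 fold changes were -0.12 and -1.17, and only tmc6b was called. These are the 2 of 7 members of this class with that separation, against 42.1% of all members and 35% of all tested genes. SLC27A1 (fatty acid uptake), PANX1 (a channel that releases ATP), TTYH2 (an anion channel family gene) and slc51a (a steroid and bile acid transporter subunit) overlapped between mutant and uninjured Wt, with ratios from -0.31 to -0.11.

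Genome maintenance and RNA genes gave 8 members. Both mutant libraries lay below both uninjured ones in 0 of the 8, against 42.1% of all members and 35% of all tested genes. The class is small and was assigned by hand, so nothing is read from this. terf1, which binds telomere repeats in the shelterin complex, was the most strongly induced member, with 3.86 and 2.57 CPM in mycb mutant, 17.6 and 13.8 CPM in Wt 2 dpi and 4.13 and 2.87 CPM in uninjured Wt. WEE1, the kinase that holds back entry into mitosis, had 21.8 and 17.5 CPM in mycb mutant, 52.4 and 54.5 CPM in Wt 2 dpi and 28 and 15.4 CPM in uninjured Wt. The mismatch repair gene PMS2 had 5.10 and 2.83 CPM in mycb mutant, 10.7 and 12.5 CPM in Wt 2 dpi and 5.52 and 4.0 CPM in uninjured Wt. Of 7 tested non-members on a mismatch repair list, 5 were called higher and 1 lower in Wt 2 dpi than in uninjured Wt. In the mutant, 1 was called higher and 4 lower than in Wt 2 dpi, and 3 higher and 0 lower than in uninjured Wt. One of the 3 called higher than in uninjured Wt, MSH6, had 38.4 and 41.2 CPM in mycb mutant, 141 and 152 CPM in Wt 2 dpi and 17.1 and 13.6 CPM in uninjured Wt. On the list of p53 targets and growth arrest, which holds the members PERP, AIFM2 and WEE1, 5 of 15 tested non-members were called higher and 3 lower in Wt 2 dpi than in uninjured Wt, 4 lower and 0 higher in the mutant than in Wt 2 dpi, and 2 higher and 4 lower in the mutant than in uninjured Wt.

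The members without an assigned role numbered 16. The membrane protein gene tmem176l.1 had 92.8 and 106 CPM in mycb mutant, 399 and 347 CPM in Wt 2 dpi and 127 and 77.7 CPM in uninjured Wt. ENSDARG00000112702, which has no symbol, had 87.9 and 76.1 CPM in mycb mutant, 505 and 194 CPM in Wt 2 dpi and 159 and 139.6 CPM in uninjured Wt, and its Wt 2 dpi replicates differed more than 2-fold. The lowest mutant level relative to uninjured Wt belonged to si:dkey-83k24.5, with 0.403 and 0 CPM in mycb mutant, 9.48 and 12.8 CPM in Wt 2 dpi and 2.97 and 2.69 CPM in uninjured Wt. In counts these were 19 and 0 in mycb mutant, 610 and 706 in Wt 2 dpi and 164 and 150 in uninjured Wt. It was the 1 member below its uninjured level under all 4 scalings drawn in the plot of members under 4 scalings. The uncharacterized gene zgc:162780 had a log2 ratio of 1.70 for Wt 2 dpi over uninjured Wt and -0.24 for mutant over uninjured Wt.

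At the edges of the rule, members and non-members differed little. The 3 members closest to the limit on mutant level were cryzl1, them4 and TAFAZZIN, with log2 ratios of mutant over uninjured Wt of -0.0020, -0.0032 and -0.0055, and the nearest genes outside were MAT2A, TPD52 and cacna2d1a, at 0.00063, 0.00088 and 0.0030. At the limit on induction, gnpda2, HHIP and ACAA1 were inside with log2 ratios of 1.002, 1.004 and 1.006, and SPRYD4, XPOT and ENSDARG00000116863 outside with 0.998, 0.998 and 0.997. At the limit on level, TFB1M, ABHD14B and WTIP were inside with 10.2, 10.3 and 10.4 CPM in Wt 2 dpi, and tmem106a, STXBP6 and si:ch73-344o19.1 outside with 9.997, 9.99 and 9.71 CPM. At the limit on uninjured level, the lowest member was si:dkey-83k24.5 at 2.83 CPM, before ABHD14B and DAW1.

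The gene targeted in the mutant could not be checked. Of 2 identifiers with the symbol MYC, ENSDARG00000007241 had 128 and 113 CPM in mycb mutant, 209.7 and 163 CPM in Wt 2 dpi and 252 and 136 CPM in uninjured Wt. The other, ENSDARG00000045695, had 84.1 and 63.4 CPM in mycb mutant, 34.6 and 34.2 CPM in Wt 2 dpi and 34.7 and 34.9 CPM in uninjured Wt. The symbol table does not say which of them is mycb, and a deletion within 1 exon need not change a count over the whole gene.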

How the data were processed

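The authors deposited raw counts per gene for 6 libraries of sorted GFP+ MG (23510 Ensembl genes). The submitters' processing notes name cutadapt 2.3, FastQC 0.11.8, STAR 2.7.8a, RSEM 1.3.3 and DESeq2, and the builds GRCh38 and GRCz11. The study's methods name the zebrafish build. The counts are whole numbers and may be rounded RSEM estimates. Strand setting and annotation release are not given in the sources used here.

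Groups follow the sample titles. CPM was the count over the column total times 1000000. Symbols were matched for 21982 identifiers. Counts were filtered with filterByExpr (minimum count 10, 20329 genes left) and TMM-scaled counts entered edgeR's quasi-likelihood model (edgeR 4.0.16, R 4.3.3), with 1 term per group and 3 residual degrees of freedom. Alternatives were DESeq2 1.42.0, RLE, library size only, TMM without photoreceptor markers, no filter, adjusted p alone, the compared groups only, a replicate block, each library left out, and other limits of the rule.

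The members, role lists, role classes and markers were chosen with earlier results of these data known. Identifiers left out as listed families numbered 480 printed and 50 found by symbol, and 4 names matched none. Named were members with a symbol among the 12 highest levels in Wt 2 dpi, the 12 largest inductions, the 12 lowest mutant ratios or a role list, members at each limit, and the 2 most abundant without a symbol. Promoter motifs were not analysed here. With 2 libraries a group, the spread between libraries sets the precision. A few genes are not reported here, in the text or by name in the plots.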

Additional observations from a re-analysis of the deposited data

How the results depend on the processing

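The number of members was within 1.5 times of 140 under TMM scaling (104), TMM without photoreceptor markers (104), the 2 other limits on uninjured level, no condition on single libraries, a level limit of 5 CPM and the listed families kept in. It moved to 81 with RLE scaling, all of them among the 140, to 93 with a limit of 20 CPM, to 515 and 26 with induction limits of 0.5 and 1.5 (log2), and to 354 and 60 with a looser and a stricter limit on the mutant mean. With 1 library left out it ranged from 130 to 187, of which 75 to 124 were among the 140. Scaled to 7 MG markers, added after seeing the data, it was 2, and the cause was not tested. On the same scale the members called lower in mutant than in Wt 2 dpi numbered 10, those called lower than in uninjured Wt 1, with 121 called higher, and the median log2 fold changes were 1.55 for injury, -0.14 for mutant against Wt 2 dpi and 1.52 for mutant against uninjured Wt.

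Members called higher with injury ranged from 129 to 140 over the alternatives that kept every library, MG marker scaling apart, and from 100 to 138 with 1 left out. Those called lower in mutant than in Wt 2 dpi ranged from 134 to 140 over the same alternatives and from 99 to 140 with 1 library left out. Those called lower in mutant than in uninjured Wt numbered 25 with no filter on low counts, 9 with only the compared groups and 6 to 19 with 1 library left out. With the replicate block the numbers were 138, 138 and 19. Same-numbered libraries did not deviate together (correlations of -0.01, 0.02 and -0.04 across 20329 genes). A correlation over all genes can miss pairing that affects few of them, so it does not settle whether the numbers pair the samples. Median log2 fold changes of the members kept their sign in every alternative other than MG marker scaling. They ranged from 1.13 to 1.42 for injury and from -1.62 to -1.32 for mutant against Wt 2 dpi. For mutant against uninjured Wt they ranged from -0.27 to -0.03. All moved by less than 0.26, the median standard error of single genes. That is not the error of a median over 140 genes, so it does not measure how stable the medians are. A count gene by gene for 82 named members left out MG marker scaling, which called 121 of the 140 members higher in mutant than in uninjured Wt. Under the other alternatives no call of these 82 was reversed. Of 1148 results in each contrast, 22, 0 and 27 gained a call and 54, 64 and 36 lost one (in the order injury, mutant against Wt 2 dpi, mutant against uninjured Wt).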
